A study of Mus musculus with 64 samples.

Results

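The genes described here encode the mouse proteasome: its structural and catalytic subunits, its activators, its inhibitor and its dedicated assembly chaperones. They were taken by name, as every row of the count table whose symbol is Psm, a letter from a to g and a number, without the interferon-inducible catalytic genes Psmb8 and Psmb9. This gave 46 of the 24530 gene symbols in the table, and all 46 had at least 1 count in the 64 cells. No expression value was used to choose them.

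The proteasome is the large protease that degrades proteins tagged with ubiquitin in the cytoplasm and nucleus. Its barrel-shaped core is a stack of rings of alpha and beta subunits, and 3 of the beta subunits carry the cutting sites. A regulatory particle, built of ATPase and non-ATPase subunits, caps the barrel, binds ubiquitin chains, unfolds the substrate and feeds it in. In immune cells and under interferon, alternative catalytic subunits and other caps alter which peptides the core makes, and these peptides are loaded on major histocompatibility complex molecules.

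The cells were single FDG-positive cells sorted from dissociated molars and incisors of XLacZ4 mice, with 32 cells from each kind of tooth. XLacZ4 mice carry a lacZ reporter gene that was used here to mark pericytes, which wrap small vessels, and FDG is a substrate that becomes fluorescent when beta-galactosidase cuts it. Age, sex and treatment are not given in the labels, and no animal is named, so each tissue is 1 sample, the cells are not replicates, and no test was made. All 64 cells are labelled pericytes.

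Cells were put in classes by 2 marker genes. Mural-like cells had at least 500 CPM (counts per 1000000 counts of the cell) of Rgs5, a pericyte marker that regulates G-protein signalling, and 0 reads of Csf1r, which encodes the receptor for a macrophage growth factor. Macrophage cells had at least 1 read of Csf1r and under 500 CPM of Rgs5. There were 47 macrophage cells, 22 from molars and 25 from incisors, and 15 mural-like cells, 9 from molars and 6 from incisors. The other 2 cells fell in neither class: molar cell 10 had no read of either gene and held 564120 CPM of enamel-forming epithelium markers, and incisor cell 13 had 2301 CPM of Rgs5 together with 839 reads of Csf1r. These 2 cells entered only the values given over all cells. The mural-like cell nearest the Rgs5 limit was incisor cell 2 at 570 CPM, no macrophage cell had more than 167 CPM of Rgs5, and the lowest macrophage cell had 44 reads of Csf1r.

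The classes were checked on the markers that the class rule did not use, that is without Csf1r and Rgs5, whose levels in the classes the rule fixes. The other 11 macrophage markers all had counts in the macrophage class, with a summed level per cell of 2948 to 59903 CPM. In the mural-like class 2 of the 11 had counts, at 0 to 33.3 CPM per cell, and C1qa, C1qb, C1qc, Tyrobp, Fcer1g, Mrc1, Adgre1, Lyz2 and Cd14 were at 0. The other 11 mural markers all had counts in the mural-like class, with 1264 to 26338 CPM per cell. In the macrophage class 7 of the 11 had counts, at 0 to 125 CPM per cell with a median of 0.626, and Pdgfrb, Kcnj8, Cspg4 and Tagln were at 0. For the 47 macrophage cells the label pericyte went against these markers. Total counts per cell ran from 514492 to 3171734, with a median of 1428705 in macrophage and 2767909 in mural-like cells, and a median of 2587 and 2529 genes had a count. The ribosomal RNA gene Rn45s took a median of 1.89% of a macrophage cell's counts and 0.548% of a mural-like cell's, and the nuclear RNA Malat1 took 3.52% and 1.27%. Their part in the results below was not tested.

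The proteasome genes took a larger share of the counts in mural-like than in macrophage cells. In macrophage cells the share was 0.0739% in the lowest cell, 0.4% at the median and 1.06% in the highest. In mural-like cells it was 0.279%, 0.674% and 1.34%. The classes overlapped: 5 of 47 macrophage cells lay above the mural-like median, and 2 of 15 mural-like cells lay below the macrophage median. Summed over cells, the share was 0.703% in mural-like and 0.424% in macrophage cells, a ratio of 1.66 (95% interval 1.65 to 1.67 for counting error only). The direction held in each kind of tooth, with 0.672% against 0.410% in molar cells (1.64-fold) and 0.752% against 0.436% in incisor cells (1.72-fold). Incisor cell 10, a mural-like cell, had the highest share of all 64 cells, and without it the ratio was 1.54, the lowest value with any 1 cell left out. Without incisor cell 2, a mural-like cell whose Rn45s and Malat1 shares stood apart, the ratio was 1.67.

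**Figure D1:**
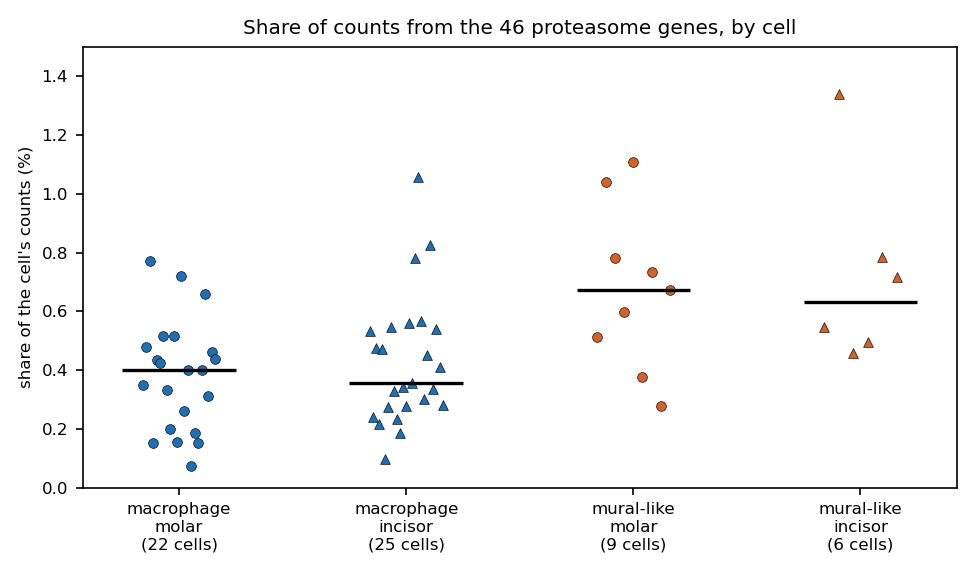
Share of each cell's counts (%, vertical axis) that came from the 46 proteasome genes, for macrophage cells (blue) and mural-like cells (orange) of molars (circles) and incisors (triangles); each point is 1 cell and each bar is the median of its group. Mural-like cells sit higher on the whole, with a median of 0.674% against 0.4%, but the groups overlap, and incisor cell 10 stands above the rest at 1.34%.

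Read by read, most members were seen in only some cells. With every cell thinned to 1040000 reads, which kept 40 macrophage and 15 mural-like cells, a macrophage cell had a read of 11 to 34 of the 46 genes (median 17) and a mural-like cell of 4 to 33 (median 20). Without thinning, the medians were also 17 and 20. Reads of all 7 alpha ring genes were found together in 3 macrophage and 3 mural-like cells, reads of all 7 beta ring genes in 1 and 3, and reads of all 6 ATPase genes in 1 and 2. A gene without a read was not detectable in that library, which does not show that it was silent. Cells with more genes detected also had more members detected, with a Spearman rho of 0.77 over 47 macrophage and 0.97 over 15 mural-like cells, which share library and depth between both measures and are given as a description. The share of counts followed the number of genes less closely, with rho of 0.46 and 0.36.

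**Figure D2:**
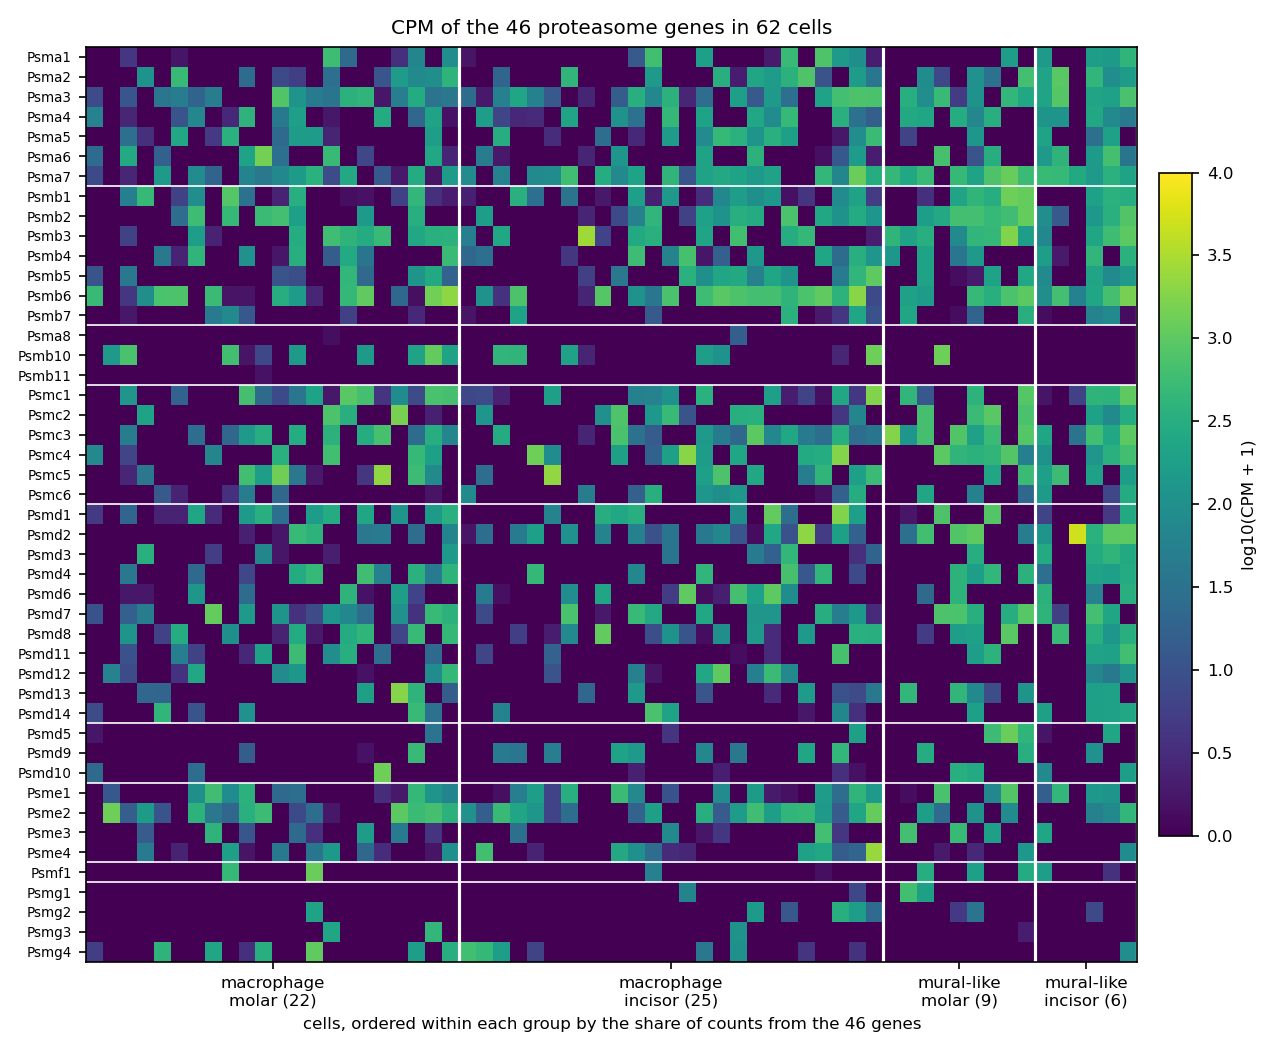
CPM of the 46 proteasome genes (rows, grouped by role with white lines) in the 62 cells of the 2 classes (columns), coloured by log10(CPM + 1) from dark (0) to yellow. Columns are ordered within each class and tissue by the share of counts from the 46 genes; the most fully covered columns are the high-share cells at the right of each block, and the rows of Psma8 and Psmb11 are nearly empty.

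The class comparison used log2 ratios of summed CPM, with 1 CPM added to each level, over the 44 members with a mean of at least 5 CPM over the 2 classes. Psma8, the testis form of an alpha subunit, and Psmb11, the catalytic subunit of the thymus, did not pass this filter, with 0.535 and 0.0134 CPM in macrophage cells and 0 counts in mural-like cells. Psmg1, Psmg2 and Psmg3 passed through 1 class alone, with under 5 CPM in the other. The median ratio of macrophage over mural-like was -0.73 for the 44 members and -0.07 for all 9798 genes measured. Of the 44, 12 had a ratio above 0 and 32 below. At least 2-fold higher in mural-like cells were 17 of 44, against 35.7% of all genes, and at least 2-fold higher in macrophage cells were 6 of 44, against 35% of all genes. The members thus held few large differences towards macrophage cells and about the share of all genes towards mural-like cells, while most of their smaller differences also lay on the mural-like side. In molar and incisor cells taken separately, 42 members passed the filter in each tissue, and Psmg1 and Psmg3 did so in molar cells alone. Of the 42, 21 were on the mural-like side in both tissues, against 31.6% of all genes, and 7 on the macrophage side, against 36.2%. The other 14 changed side, close to the share of all genes, 32.1%: Psma1, Psma6, Psmb4, Psmb5, Psmb6, Psmb7, Psmc1, Psmc2, Psmc5, Psmd1, Psmd8, Psmd9, Psmd11 and Psmd14. Past 2-fold in both tissues were 6 of 42 towards mural-like (Psmb1, Psmb3, Psmc3, Psmd2, Psmd5 and Psmd7), against 19.7% of all genes, and 2 of 42 towards macrophage cells (Psme2 and Psmg4), against 24.6%. In incisor cells each of these folds ended, turned or moved by over 1.5 times when 1 cell was left out. That of Psmd5 turned, and that of Psme2 fell under 2-fold on leaving out any 1 of 12 cells. In molar cells Psmd5 and Psmg4 passed the filter through 1 class alone, with under 5 CPM in the other. Leaving out 1 cell turned the sign of the class ratio of 8 members, Psma1, Psmb4, Psmb5, Psmb6, Psmd1, Psmd6, Psmd9 and Psme1.

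Few of these folds were independent of a single cell. Of the 23 members past 2-fold between the classes, 18 had a fold that fell under 2 or moved by over 1.5 times when 1 cell was left out. The 5 others were all higher in mural-like cells. Psmc3, an ATPase, was 3.36-fold higher (3.28 to 3.44), Psmb1, a beta ring subunit without a cutting site, 3.18-fold (3.09 to 3.28), Psma7, an alpha subunit, 2.56-fold (2.50 to 2.62), Psmb2, another beta subunit, 2.54-fold (2.48 to 2.61), and Psmd7, a lid subunit, 2.54-fold (2.47 to 2.61). The brackets are 95% intervals for counting error only. With 1 cell left out in turn, their log2 ratios ran from -2.10 to -1.47 for Psmc3, -1.97 to -1.27 for Psmb1, -1.65 to -1.20 for Psma7, -1.49 to -1.08 for Psmb2 and -1.59 to -1.09 for Psmd7.

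**Figure D3:**
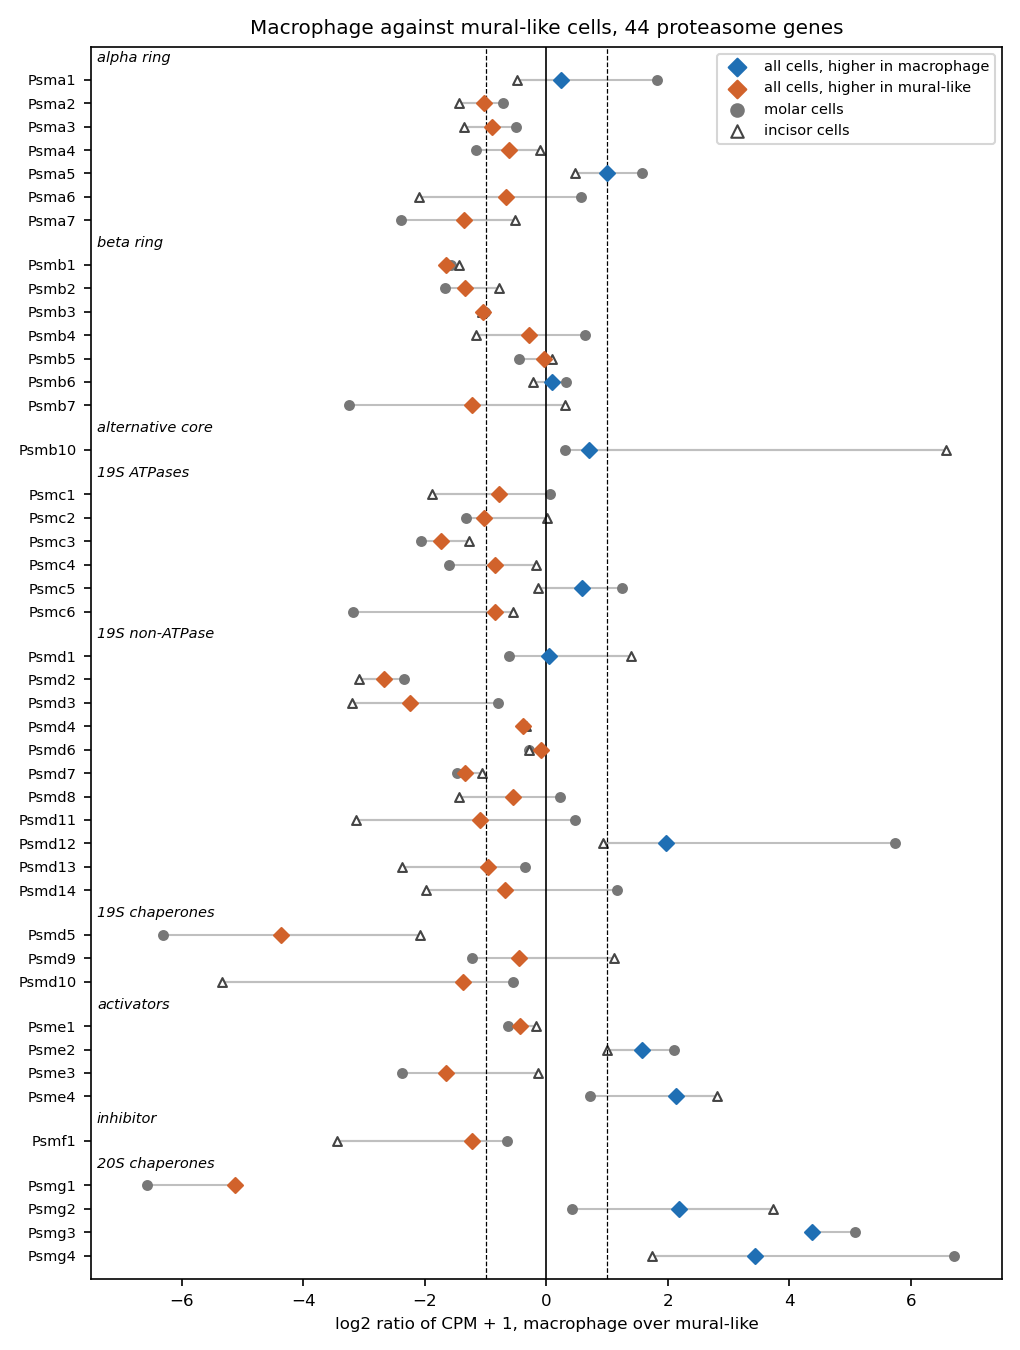
Log2 ratio of CPM + 1, macrophage over mural-like (horizontal axis), for the 44 measured proteasome genes, grouped by role; diamonds are all cells of both classes, circles molar cells alone and open triangles incisor cells alone (each drawn where the gene passed the filter in that tissue), and dashed lines mark 2-fold. Ring and ATPase genes lie mostly left of 0, 3 of the 4 core chaperone genes lie to the right, and molar and incisor values are far apart for genes such as Psmb10, Psmd12 and Psmg4. The core chaperone genes Psmg1, Psmg2 and Psmg3 passed the filter through 1 class alone.

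For comparison, 2 other groups of widely expressed complexes were measured in the same way. Nuclear-encoded subunits of oxidative phosphorylation had a median of -0.62 over 72 genes, with 20 past 2-fold towards mural-like and 3 towards macrophage cells, and took 1.68 times the share of counts in mural-like cells. Over all genes, 35.7% were past 2-fold towards mural-like and 35% towards macrophage cells. Translation initiation factors had a median of -0.10 over 41 genes, with 12 and 7 past 2-fold, and took 1.08 times the share. The 31 standard subunits of the proteasome, the alpha and beta rings with the regulatory particle, had a median of -0.85, with 12 and 1 past 2-fold, and took 1.79 times the share (1.78 to 1.80). The median and the share of the proteasome subunits thus lay nearer to those of the respiratory chain than to those of the initiation factors, and no test of these differences was made.

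Promoter windows are shown for 4 members. Psmd2 was past 2-fold towards mural-like cells, Psmd12 and Psme4 were past 2-fold towards macrophage cells, and Psme1 belongs to the interferon-inducible activator. These were picked, and other members had larger ratios on each side. RefSeq (GRCm38.p6) windows, from 250 bases before to 50 bases after a gene's start, matched 38 of the 46 members, with 41 windows. The capitals mark matches, on either strand, to the ETS core CCGGAAG, to the antioxidant response element core TGACNNNGC, bound by the factors that raise proteasome genes under stress, or to the interferon-stimulated response element, written as a pair of GAAA repeats with any 2 bases between. The windows are chr16:20651402-20651701, chr11:107479278-107479577, chr11:30771525-30771824 and chr14:55578244-55578543, all on the plus strand.
Psmd2: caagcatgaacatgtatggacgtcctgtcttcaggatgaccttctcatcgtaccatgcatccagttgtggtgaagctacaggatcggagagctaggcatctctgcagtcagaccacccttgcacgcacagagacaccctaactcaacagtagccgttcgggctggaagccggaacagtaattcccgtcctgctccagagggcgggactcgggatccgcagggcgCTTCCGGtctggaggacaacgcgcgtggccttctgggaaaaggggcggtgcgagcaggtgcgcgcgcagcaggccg
Psmd12: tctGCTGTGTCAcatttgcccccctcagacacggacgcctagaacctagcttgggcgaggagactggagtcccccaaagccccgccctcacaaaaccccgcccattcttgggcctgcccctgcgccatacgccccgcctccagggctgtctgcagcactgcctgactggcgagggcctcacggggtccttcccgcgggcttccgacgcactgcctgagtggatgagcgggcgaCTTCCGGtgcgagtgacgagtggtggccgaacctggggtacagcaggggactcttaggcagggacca
Psme4: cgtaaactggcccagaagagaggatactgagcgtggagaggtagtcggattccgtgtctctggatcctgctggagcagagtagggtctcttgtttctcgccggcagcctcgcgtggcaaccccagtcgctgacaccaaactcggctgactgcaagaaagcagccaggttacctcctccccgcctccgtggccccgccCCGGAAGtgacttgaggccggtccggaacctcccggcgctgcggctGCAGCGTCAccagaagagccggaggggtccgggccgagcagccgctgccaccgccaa
Psme1: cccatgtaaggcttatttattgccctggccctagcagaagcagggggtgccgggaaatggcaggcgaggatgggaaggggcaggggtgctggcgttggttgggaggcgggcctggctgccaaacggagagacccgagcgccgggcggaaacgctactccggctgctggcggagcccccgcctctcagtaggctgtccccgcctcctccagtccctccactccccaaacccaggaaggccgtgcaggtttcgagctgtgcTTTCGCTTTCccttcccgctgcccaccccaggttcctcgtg
Psmd2 holds the ETS core, Psmd12 and Psme4 hold both the ETS and the antioxidant core, and Psme1 holds the interferon element. Among these 4 windows, the ETS core was thus found on both sides of the class comparison. The antioxidant core was not limited to the macrophage side. The other members with it were Psmc6, Psmd9 and Psmb5, with class log2 ratios of -0.85, -0.45 and -0.05, and Psmb6, with 0.10. Any part of these letters in the class ratios was not tested.

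Over all member windows, the ETS core was in 15 of 41 (36.6%), against 8.86% of all 32851 windows. The interferon element was in 5 (12.2%), those of Psmb3, Psmd4, Psmd9, Psme1 and Psmg4, against 3.44%. The antioxidant core was in 6 (14.6%), those of Psmb5, Psmb6, Psmc6, Psmd9, Psmd12 and Psme4, against 12.4%. The gamma-activated sequence TTCNNNGAA was in 2 (4.88%) against 8.30%, the YY1 letters AAGATGGC in 3 (7.32%) against 2.75%, the CCAAT box in 13 (31.7%) against 37.4%, the NRF1 site in 2 (4.88%) against 0.971%, and the NF-kappaB site in 0 against 1.63%. The motifs were looked for on both strands, matches of different motifs were counted apart and may overlap, and the motif list was drawn up with results known. A match is a run of letters and not a measured site. No entry was matched for Psma8, Psmb1, Psmb2, Psmb7, Psmc3, Psmd3, Psmd7 and Psmg2.

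The alpha ring forms the outer gate of the core. Its 7 genes took 1.68 times the share of counts in mural-like cells, with 2 of 7 past 2-fold towards that class, against 35.7% of all genes, and 0 towards macrophage cells, against 35%. Psma7 (chr2:180036374-180042433) had 0 to 1188 CPM per mural-like cell (median 455, read in 14 of 15 cells) and 0 to 1232 CPM per macrophage cell (median 73.6, read in 36 of 47), so the classes overlapped widely around different medians. Psma3 had 254 CPM in mural-like and 136 CPM in macrophage cells, Psma4 129 and 83.0, and Psma6 154 and 96.4. Psma2 had 184 and 89.6 CPM, a 2.05-fold difference that fell under 2 on leaving out any 1 of 20 cells, to 1.57-fold without incisor cell 24. Psma5 and Psma1 went the other way, with 88.1 CPM in macrophage against 43.8 in mural-like cells for Psma5, a log2 ratio of 0.99 that lay just under the line, and 86.2 against 72.7 for Psma1. The side of Psma1 was not settled, since its log2 ratio of 0.24 was 1.82 in molar and -0.49 in incisor cells and became -0.19 with 1 cell left out. Psma5 overlaps an opposite-strand transcript and Psma4 another, AY074887, which had 15 counts.

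The beta ring holds the cutting sites. Psmb6, the caspase-like subunit (chr11:70525367-70527858), was the member with the most counts: 0 to 2095 CPM per macrophage cell with a median of 110, and 0 to 1517 CPM per mural-like cell with a median of 234. Its summed levels, 444 CPM (439 to 449) and 415 CPM (408 to 421), differed by a log2 ratio of 0.10. Psmb5, the chymotrypsin-like subunit that proteasome inhibitor drugs bind (chr14:54614119-54618022), likewise had 83.3 CPM (81.3 to 85.4) in macrophage and 86.2 CPM (83.3 to 89.1) in mural-like cells, a log2 ratio of -0.05, with 0 to 1031 and 0 to 237 CPM per cell and medians of 0 and 0.946. The summed levels of these 2 catalytic genes in the classes were thus close, though the median per cell of Psmb6 was higher in mural-like cells. Leaving out 1 cell turned the sign of both small differences in summed level (-0.04 to 0.43 for Psmb6 and -0.28 to 0.17 for Psmb5). After thinning, Psmb6 was read in 77.5% of the 40 macrophage cells and 80% of the 15 mural-like cells kept, and Psmb5 in 42.5% and 60%.

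Psmb7, the trypsin-like subunit (chr2:38588036-38644087), had 21.9 CPM (20.8 to 22.9) in macrophage and 52.6 CPM (50.3 to 54.9) in mural-like cells, 2.41-fold higher in the latter. It was read in 14 of 47 macrophage cells (0 to 361 CPM) and 8 of 15 mural-like cells (0 to 322 CPM), with medians of 0 and 0.346, so both groups consisted of a few high cells among many at or near 0. Leaving out molar cell 17 gave 1.41-fold, molar cell 19 1.81-fold and incisor cell 9 3.98-fold. In molar cells Psmb7 had 6.22 CPM in macrophage and 67.7 CPM in mural-like cells. In incisor cells the order was reversed, with 35.9 and 28.7 CPM. Its exons overlap those of Nek6 on the opposite strand, which had 5619 counts against 3799 for Psmb7, and Smart-Seq2 libraries do not keep the strand, so reads of these genes cannot be told apart where they overlap.

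Psmb10, which replaces Psmb7 in the immunoproteasome (chr8:105935735-105938444), had 119 CPM (117 to 122) in macrophage and 72.9 CPM (70.3 to 75.7) in mural-like cells, a log2 ratio of 0.70. In mural-like cells all of its counts came from 1 cell, molar cell 15, at 1304 CPM, and the other cells had 0. In macrophage cells it was read in 18 of 47, with 0 to 1288 CPM and a median of 0. Thinned cells with a Psmb10 read were 37.5% of 40 macrophage and 6.67% of 15 mural-like cells. Reads of Psmb10 and Psmb7 were found together in 7 macrophage cells, Psmb10 alone in 11, Psmb7 alone in 7 and neither in 22. In mural-like cells the same counts were 0, 1, 8 and 6, so no mural-like cell held reads of both. The companion inducible genes outside the rule went with the macrophage class: Psmb8 had 129 CPM with a read in 39 of 47 macrophage cells and 49.3 CPM in 3 of 15 mural-like cells, and Psmb9 had 51.7 CPM in 13 macrophage cells and 0 counts in mural-like cells.

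**Figure D4:**
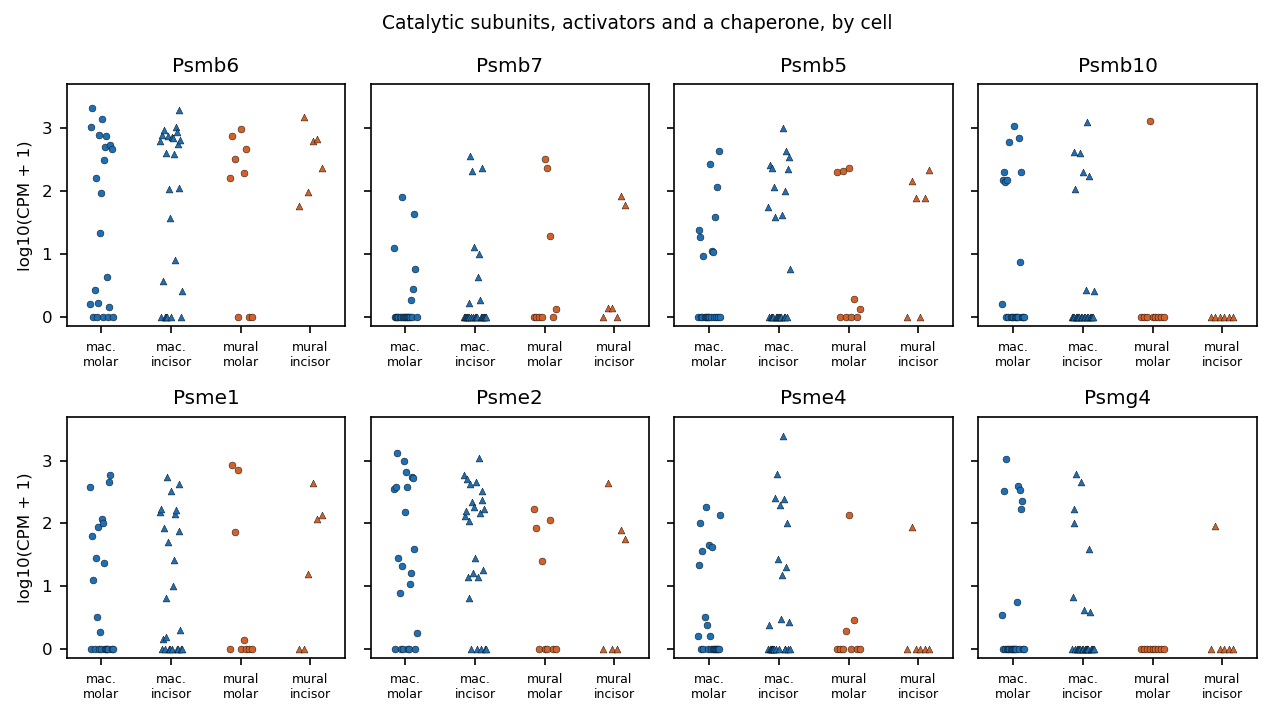
Level per cell, log10(CPM + 1), of the catalytic genes Psmb6, Psmb7 and Psmb5, the inducible Psmb10, the activators Psme1, Psme2 and Psme4 and the core chaperone Psmg4, in macrophage (mac., blue) and mural-like (mural, orange) cells of molars (circles) and incisors (triangles); each point is 1 cell. Psmb6 is read in most cells of each group, while Psmb10 has 1 and Psmg4 1 mural-like cell above 0.

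The remaining beta ring genes have structural roles. Psmb1 (chr17:15475021-15499751) had 284 CPM in mural-like cells (0 to 1317, median 197) and 89.2 CPM in macrophage cells (0 to 885, median 2.17). Psmb2 had 374 and 147 CPM. Psmb3 had 372 and 179 CPM, a 2.08-fold difference that went to 1.69 with molar cell 4 left out, 1.81 with incisor cell 10, 1.99 with incisor cell 28 and just under 2 with incisor cell 1. Psmb4 had 111 and 90.7 CPM. Of the beta ring, 4 of 7 genes were past 2-fold towards mural-like cells, against 35.7% of all genes, and 0 towards macrophage cells, against 35%.

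The ATPases of the regulatory particle unfold the substrate. Together the 6 genes took 1.86 times the share of counts in mural-like cells. Psmc3 (chr2:91054009-91066369) had 0 to 1788 CPM per mural-like cell with a median of 247, and 0 to 990 CPM per macrophage cell with a median of 25, for 510 against 152 CPM when summed. Its exons overlap Slc39a13 on the opposite strand, with 6405 counts against 31394 for Psmc3. Psmc1 had 264 CPM in mural-like and 153 in macrophage cells, Psmc4 275 and 153, and Psmc6 57.1 and 31.3. Psmc2 had 253 and 124 CPM, and its 2.05-fold difference fell under 2 on leaving out any 1 of 20 cells, to 1.68-fold without molar cell 13. Psmc5 had 187 CPM in macrophage and 125 CPM in mural-like cells, and its side differed by tissue, with a log2 ratio of 1.25 in molar and -0.15 in incisor cells.

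The non-ATPase subunits bind ubiquitin, remove it and hold the particle together. Their 11 genes took 2.05 times the share of counts in mural-like cells, 1.55 times in molar and 2.84 times in incisor cells. Psmd2, the scaffold on which ubiquitin shuttle proteins dock (chr16:20651652-20663414), had the highest share of these counts in mural-like cells. It was read in 10 of 15 mural-like cells, with 0 to 5118 CPM and a median of 115, and in 27 of 47 macrophage cells, with 0 to 2058 CPM and a median of 1.21. Summed, this was 546 CPM (538 to 553) against 85.0 CPM (82.9 to 87.1), 6.42-fold higher in mural-like cells, and 10.7-fold without incisor cell 17. Incisor cell 2 held the highest level, and Psmd2 made up 93.4% of its reads of proteasome genes. Without that cell the log2 ratio was -2.21 in place of -2.67. Psmd3, a lid subunit, had 120 CPM in mural-like and 24.4 CPM in macrophage cells, 4.91-fold higher, and 8.67-fold without incisor cell 9. Psmd7 (chr8:107580381-107588464) had 305 and 120 CPM, with medians of 228 and 2.73 per cell.

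Psmd4, the ubiquitin receptor (chr3:95032694-95042614), had 150 CPM (146 to 154) in mural-like and 114 CPM (111 to 116) in macrophage cells, a log2 ratio of -0.39. It was read in 8 of 15 and 17 of 47 cells, up to 441 and 686 CPM, with medians of 27.8 and 0. Psmd14, the deubiquitinase of the lid (chr2:61711694-61800376), had 76.2 CPM (73.5 to 79.0) and 47.1 CPM (45.6 to 48.7), a log2 ratio of -0.68, and was read in 5 and 12 cells. Neither ubiquitin gene was past 2-fold. By tissue Psmd14 turned, with a molar log2 ratio of 1.16 and an incisor ratio of -1.98. Psmd12, a lid subunit (chr11:107479484-107504362), was the only one of the 11 past 2-fold towards macrophage cells: 70.0 CPM (0 to 1014 per cell, read in 17) against 17.3 CPM (0 to 120, read in 3), 4.06-fold, and 7.47-fold without incisor cell 10.

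The other non-ATPase genes differed less. Psmd1 had 119 CPM in macrophage and 115 in mural-like cells, Psmd6 81.4 and 86.5, and Psmd8 111 and 162. Psmd13 had 54.7 and 108 CPM, under 2-fold, and overlaps Sirt3 on the opposite strand, which had 3875 counts against 8294. Psmd11 had 53.0 and 114 CPM, 2.16-fold higher in mural-like cells, which became 1.43 when incisor cell 10 was left out, 1.82 for molar cell 13 and 3.47 for molar cell 8; without incisor cell 32 it fell just short of 2-fold on the log2 scale.

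Chaperones that assemble the regulatory particle and then leave it were higher in mural-like cells when summed, at 3.67 times the share of counts, and most of this was 1 gene. Psmd5 (chr2:34849734-34874968) had 141 CPM in mural-like and 5.87 CPM in macrophage cells, 24.1-fold. Its level was above 200 CPM in 4 of 15 mural-like cells, molar cells 4, 13 and 17 and incisor cell 28, at 1201, 558, 416 and 222 CPM, and at 186 CPM or less in all 47 macrophage cells. The fold was 14.9 without molar cell 4 and 177 without incisor cell 26. Psmd10 had 65.2 CPM against 24.7, 2.64-fold higher in mural-like cells, and leaving out molar cell 22, 31 or 9 made this 1.89, 1.79 or 63.9. Psmd9 had 56.9 and 41.3 CPM.

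The chaperones of the core went in different directions. Psmg1 and Psmg2 encode partners of 1 dimer that starts the alpha ring, and Psmg3 and Psmg4 those of another. Psmg1 (chr16:95979933-95990960) was read in 2 mural-like cells, molar cell 19 at 622 CPM and molar cell 1 at 185 CPM, and in 2 macrophage cells, incisor cell 30 at 62.8 CPM and incisor cell 26 at 6.33 CPM. Summed, it was 84.8-fold higher in mural-like cells, or 23.6-fold if molar cell 19 is left out and 330-fold if incisor cell 30 is. In incisor cells alone Psmg1 had 51 counts in macrophage cells (1.29 CPM) and 0 in mural-like cells, which is under the filter of 5 CPM, so no ratio was measured there. Psmg2 had 19.4 CPM in macrophage and 3.51 CPM in mural-like cells, 5.53-fold, and 21.6-fold without molar cell 22.

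Psmg3 was read in 3 macrophage cells, molar cell 18 at 439 CPM, molar cell 32 at 233 CPM and incisor cell 4 at 109 CPM, and in mural-like cells with 3 counts in molar cell 17. Its ratio of 276 (94.3 to 1341) was 156 if molar cell 18 is left out and 180 if molar cell 32 is. Psmg4 (chr13:34162964-34178173) had more cells behind it. It was read in 16 of 47 macrophage cells, with 0 to 1048 CPM, and in 1 of 15 mural-like cells, incisor cell 10 at 90.3 CPM. This gave 79.6 CPM (77.6 to 81.7) against 6.46 CPM (5.68 to 7.31), 12.3-fold, and at least 954-fold without that cell. After thinning it was read in 40% of 40 macrophage cells and 6.67% of 15 mural-like cells. Psmg3 and Psmg4 were read in the same class but not in like numbers of cells.

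Among the activators, Psme2 was higher in macrophage cells, and its partner gene Psme1 had a small ratio on the other side. Their products form the interferon-inducible cap that opens the core without ATP. Psme1 (chr14:55578123-55581529) had 0 to 584 CPM per macrophage cell (median 2.25, read in 28 of 47) and 0 to 851 CPM per mural-like cell (median 0.374, read in 8 of 15). Its summed levels were 96.0 CPM (93.8 to 98.2) and 130 CPM (127 to 134), a log2 ratio of -0.44 that ran from -0.62 to 0.04 with 1 cell left out. Psme2 (chr14:55587441-55591113) had 0 to 1326 CPM per macrophage cell (median 37.9, read in 36 of 47) and 0 to 444 CPM per mural-like cell (median 0, read in 7 of 15). Summed, it had 212 CPM (209 to 215) against 70.8 CPM (68.2 to 73.5), 3-fold higher in macrophage cells, and 5.05-fold without incisor cell 10. Thinned cells with a Psme2 read were 77.5% of 40 macrophage and 46.7% of 15 mural-like cells. The direction for Psme2 was the same in molar (204 against 46.6 CPM) and incisor cells (219 against 109 CPM).

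A near-identical copy, Psme2b, is counted under its own symbol and shares reads with Psme2. It had 96.8 CPM in macrophage and 18.8 CPM in mural-like cells, and all 43 cells with a Psme2b read also had a Psme2 read. With both genes added, the ratio was 3.45. How reads were divided between the copies is not given in the sources used here, so the level of Psme2 itself is uncertain. Psme1 overlaps Emc9 on the opposite strand, with 834 counts against 13093.

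Psme4, a large activator linked to histone degradation (chr11:30771726-30880361), had 76.2 CPM (74.3 to 78.2) in macrophage and 16.7 CPM (15.4 to 18) in mural-like cells, 4.57-fold. It was read in 23 of 47 macrophage cells, up to 2436 CPM, and in 4 of 15 mural-like cells, up to 136 CPM, and the median was 0 in both. The fold was 10.9 without molar cell 17 and 2.67 without incisor cell 20. Psme3, the nuclear activator, went the other way, with 111 CPM in mural-like and 34.7 CPM in macrophage cells. It was 3.20-fold higher in mural-like cells, 2.05-fold without molar cell 19 and 7.03-fold without incisor cell 21. Psmf1, which encodes a protein that inhibits the core in the test tube (chr2:151715812-151744186), had 74.2 CPM (71.5 to 76.9) in mural-like cells and 31 CPM (29.7 to 32.2) in macrophage cells, 2.40-fold. It was read in 5 of 15 and 4 of 47 cells, up to 306 and 1235 CPM, and leaving out molar cell 1, 17 or 7 made the fold 1.74, 1.84 or 6.37.

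Levels of different genes were compared per kilobase of exon. In macrophage cells Psmb6 was highest of all members at 237 CPM per kilobase, ahead of Psmg4 at 143, Psmc5 at 134, Psmb2 at 122 and Psme2 at 120. In mural-like cells Psmb2 came first at 311, ahead of Psmb6 at 221, Psmc3 at 196, Psmb3 at 162 and Psmc1 at 137. Psmb7 was the lowest of the 14 standard core genes in both classes, at 6.39 and 15.4 CPM per kilobase. The genes of core subunits that are present in equal number in the particle thus differed in RNA level by 37.1-fold in macrophage and 20.2-fold in mural-like cells. Both spans rest on Psmb7, whose exons overlap those of Nek6 on the opposite strand, so its own level is uncertain. The macrophage span ran from 32.8 to 61.5 with 1 cell left out, the highest without incisor cell 9, where Psmb7 fell to 3.87 CPM per kilobase. The mural-like span ran from 17.6 to 28.9, and without incisor cell 10 Psma1 took the lowest place. With the longest transcript as the length, the first and the last of the core genes were the same in both classes, and the span of the 14 in macrophage cells was 59.9-fold. The alpha ring was more even, from 24.4 (Psma2) to 78.1 (Psma6) in macrophage cells, 3.20-fold.

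**Figure D5:**
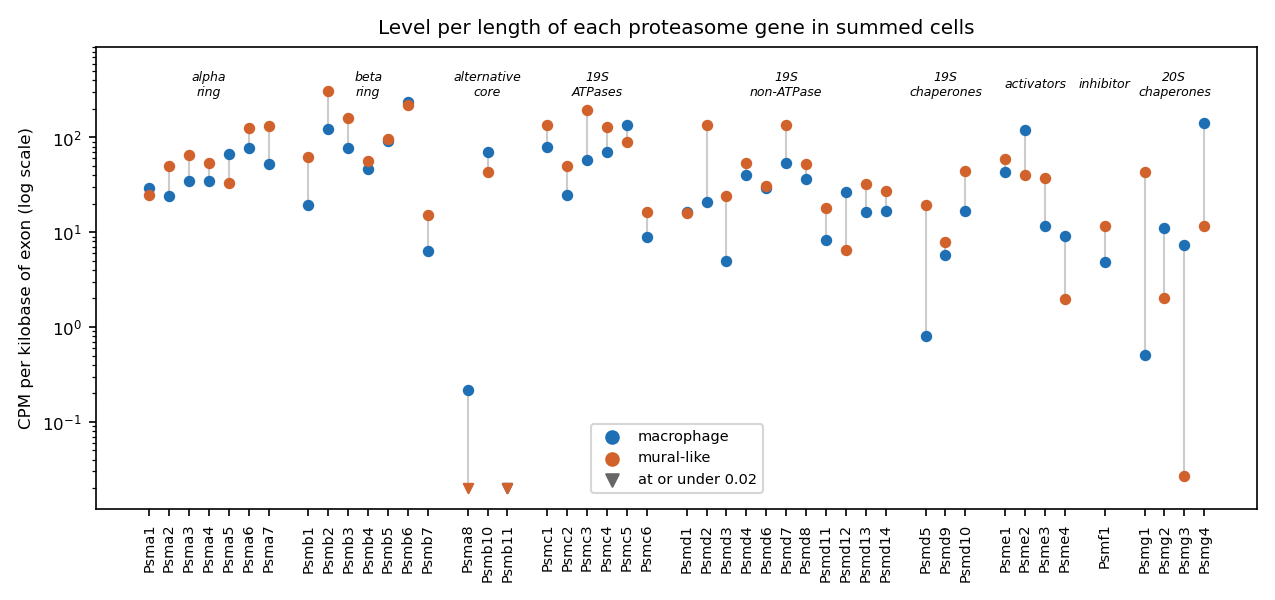
Summed level per length (CPM per kilobase of exon, log scale) of each of the 46 proteasome genes in macrophage (blue) and mural-like (orange) cells, grouped by role; triangles mark values at or under 0.02, and lines join the classes. Psmb7 lies lowest among the ring genes in both classes. The widest gaps between classes are those of Psmg3 and Psmg1, each read in few cells and under 5 CPM in 1 class.

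Other genes of the pathway, taken from a list of 29 found in the table, had a median log2 ratio of -0.11 over 27 measured, against -0.07 for all genes. Of the 27, 5 were at least 2-fold higher in macrophage cells, against 35% of all genes, and 6 in mural-like cells, against 35.7%. Towards macrophage cells, Nfe2l2, a stress factor that raises proteasome genes, had 669 against 122 CPM, 5.46-fold, and Zfand2a, an arsenite-inducible partner of the proteasome, 131 against 20.8 CPM, 6.31-fold. Nfe2l2 had a log2 ratio of 2.44 that went to 3.85 without molar cell 15, and Zfand2a one of 2.60 that went to 7.05 without incisor cell 28, its only mural-like cell with a read, and to 2.02 without molar cell 29. Usp14, a deubiquitinase that docks on Psmd2, had 61.7 CPM in macrophage cells and 2 mural-like cells with a read, at 0.0517 CPM when summed, a ratio with an interval of 330 to 9863. Uba6, a ubiquitin-activating enzyme, had 15.8 CPM against 0 counts, at least 204-fold higher. Both had reads in only some macrophage cells, 15 of 47 for Usp14 and 13 of 47 for Uba6.

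Towards mural-like cells, Vcp, the segregase that pulls ubiquitinated proteins from complexes, had 453 against 87.8 CPM, 5.16-fold, with a read in 14 of 15 and 36 of 47 cells. Ube3c, a proteasome-bound ligase, was 4.55-fold higher, Ubqln1, a shuttle factor, 4.01-fold, and Ubb, a polyubiquitin gene, 3.59-fold (10927 against 3047 CPM). Ube3c was read in only 3 of 15 mural-like and 7 of 47 macrophage cells, and Ubqln1 in 5 and 18. With 1 cell left out, the log2 ratios of these genes ran from -2.96 (without incisor cell 4) to -2.15 for Vcp, -2.89 (without molar cell 29) to -1.53 (without molar cell 1) for Ube3c, -2.52 to -1.60 for Ubqln1 and -1.94 to -1.75 for Ubb. In molar cells alone that of Ube3c ran from -3.44 to 5.04, so its direction there was not settled. Of 3 other genes of proteasome assembly and regulation none was past 2-fold with both tissues pooled. Pomp, a core maturation factor, had 273 CPM in macrophage and 169 in mural-like cells, and Adrm1, a ubiquitin receptor, 128 and 119. Nfe2l1, the factor that restores proteasome genes when the complex is blocked, had 40.5 and 40.0. In molar cells alone, Nfe2l1 had 48.8 against 10.3 CPM, 4.76-fold higher in macrophage cells. Adrm1 was 2.49-fold higher there and Pomp 1.41-fold. With 1 cell left out, the molar log2 ratios ran from 1.39 to 4.09 for Nfe2l1 and from 0.28 to 2.98 for Adrm1.

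Between molars and incisors, a smaller share of proteasome genes than of all genes was past 2-fold in macrophage cells. The median log2 ratio of molar over incisor was -0.18 for the 43 members measured and -0.12 for all genes. At least 2-fold higher in molar cells were 7 of 43, against 25.2% of all genes, and in incisor cells 9 of 43, against 31.5%. Each of these 16 folds ended, turned or moved by over 1.5 times when 1 cell was left out. Psmd10, Psmf1, Psmc6 and Psmd5 passed the filter through 1 tissue alone, with under 5 CPM in the other. The filter itself favours a large ratio for such genes. Higher in molar cells were Psmd10 (52.0 against 0.203 CPM), whose log2 ratio of 5.46 became 1.30 without molar cell 9, Psmf1 (63.0 and 2.21 CPM), whose 4.32 became 2.88 without molar cell 7, Psmd13 (100.4 and 13.6 CPM), whose 2.79 became 1.45 without molar cell 14, and Psmg3 (37.1 and 7.35 CPM), whose 2.19 became 1.15 without molar cell 18. Psmd11 had a log2 ratio of 2 that became 1.11 without molar cell 8 and 5.73 without incisor cell 19. Psma6 had 1.29 that became 0.37 without molar cell 27.

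Higher in incisor macrophage cells were Psmc6 (56.1 against 3.62 CPM), with a log2 ratio of -3.63 and of -4.52 without molar cell 2, and Psmb7 (35.9 and 6.22 CPM), with -2.35 that became -1.53 without incisor cell 9 and -3.27 without molar cell 11. Psmd5 had -2.07, which turned to 1.24 without incisor cell 26. Psme4 (119 and 28.6 CPM) had -2.02, which became -1.02 without incisor cell 20. Psmg2 had -2.02 and was at least 350-fold higher in incisor cells without molar cell 7. Psmd6 (118 and 41.0 CPM) had -1.50, which became -0.92 without incisor cell 4 and -3.05 without molar cell 30.

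In mural-like cells, 9 from molars and 6 from incisors, the members had a median log2 ratio of 0.08 over 42 measured, against -0.15 for all genes. At least 2-fold higher in molar cells were 10 of 42, against 31.4% of all genes, and in incisor cells 15 of 42, against 37.3%. All 25 of these folds rested on 1 cell in the same sense. Psmb10, Psmg1, Psmd12 and Psmg4 passed the filter through 1 tissue alone, with no counts in the other, so the filter itself favoured a large ratio. The alpha ring had 5 of 7 genes and the non-ATPase group 6 of 11 past 2-fold towards incisor cells. Incisor mural-like cells also had more genes detected, with a median of 3583 against 2317, and more members after thinning, with a median of 30 against 19; the part of this in the ratios was not tested. Higher in incisor cells were Psma1 (165 against 13.8 CPM), with a log2 ratio of -3.49 and at least 1203-fold without molar cell 4, Psmd14 (158 and 24.5 CPM), with -2.64 and at least 1079-fold without molar cell 22, Psmd3 (245 and 40.8 CPM), with -2.56 and at least 1676-fold without molar cell 22, and Psma5 (85.1 and 17.6 CPM), with -2.21, which leaving out incisor cell 22 made -1.60 and molar cell 22 made -5.64. In each of these, 1 molar cell held nearly all molar counts. Psmd12 had no counts in molar cells and 44.5 CPM in incisor cells, at least 351-fold (at least 217-fold without incisor cell 10). Psmg4 was at least 131-fold higher in incisor cells, all from incisor cell 10, and had 0 counts in both tissues without it.

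Higher in molar mural-like cells was Psmb10, with 119 CPM against 0 counts, all from molar cell 15. Psmg1 had 94.5 CPM against 0 counts, at least 473-fold, and at least 138-fold without molar cell 19. Psmd5 (203 and 44.3 CPM) had a log2 ratio of 2.17, which became 1.38 without molar cell 4 and 7.45 without incisor cell 28. Psmd9 (79.0 and 22 CPM) had 1.80, which became 0.98 without molar cell 17. Psme3 (153 and 44.1 CPM) had 1.77, which became 1.02 without molar cell 19. Psmc2 (343 and 111 CPM) had 1.62, which became 2.32 without incisor cell 10. Psme2 was 2.34-fold higher in incisor cells and turned to 1.41-fold higher in molar cells without incisor cell 10.

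Over all 64 cells, with both classes and the 2 unclassed cells mixed, the median log2 ratio of molar over incisor was 0.03 for 44 members and -0.13 for all genes, and 22 members lay on each side of 0. At least 2-fold higher in molar cells were 7 of 44, against 22.8% of all genes, and in incisor cells 9 of 44, against 28.1%. Only Psma5 (106 CPM in incisor and 38.5 in molar cells) and Psmd13 (108 CPM in molar and 30.4 in incisor cells) were past 2-fold in a way that no 1 cell ended or moved by over 1.5 times. Psma5 was higher in incisor cells in each class, and Psmd13 was higher in molar cells in each class, with log2 ratios of 2.79 in macrophage and 0.76 in mural-like cells.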

How the data were processed

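Single-cell Smart-Seq2 libraries of polyA RNA from 64 sorted cells were analysed. The authors deposited raw read counts, whole numbers by gene symbol for each cell, with no normalization. Per the submitters' processing notes, Trim Galore, HISAT2 (2) and Seurat (3) were used with mm10. How reads were counted, on which annotation and with which strand setting is not given in the sources used here. Another 124 columns of the table match no labelled cell and were not used here. Reads carry no molecular identifiers and are not independent molecules, so all intervals printed with a value (exact, 95%) and limits cover counting error only.

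CPM were computed from counts added up within a class or tissue. Log2 ratios used a pseudocount of 1 CPM and genes whose mean of the 2 groups was 5 CPM or more. A ratio of at least 1 (2-fold) was called past 2-fold. A group at 0 was set to 3 counts over the group for a fold, which is then a bound. Shares of cells with a read were taken after thinning to 1040000 reads. Gene positions and exon lengths are from GENCODE M21 (GRCm38, the assembly of mm10), matched by symbol for all 46 members, and 11 members overlap exons of another gene. No 2 cells had identical counts, and the highest correlation between any 2 was 0.511. No doublet caller was run. The ratio calculation was tested on simulated data. Python 3.11.15, NumPy 2.4.6, pandas 2.3.3, SciPy 1.17.1 and Matplotlib 3.10.9 were used.

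The members, the lists, the class rule and the motifs were chosen with earlier results of these data known. Full values are given for the catalytic genes, the inducible genes Psmb10, Psme1 and Psme2, and Psmf1, Psmd4 and Psmd14, and for up to 6 members a direction with the largest ratio past 2-fold in each comparison; of other pathway genes, up to 4 a direction and Pomp, Adrm1, Nfe2l1 and Nfe2l2. The alternatives were other pseudocounts (0.1 and 5), other filters (none and 20 CPM), equal weight for each cell, totals without the 50 genes with most counts, thinned counts, other class cuts, each tissue alone, the longest transcript as length and leaving out each cell. Totals without Rn45s and Malat1, and leaving out incisor cell 10 from every result, were added after seeing the data.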

Additional observations from a re-analysis of the deposited data

Results flagged for a closer look

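Among the 6 mural-like incisor cells, incisor cell 10 stood apart for its share of counts from proteasome genes, 1.34% against 0.784% in the next cell, a gap of 0.630 of the range where 0.625 is the limit. Its most abundant members were Psmb6 at 1517 CPM, Psmc1 at 1033 CPM, Psmd2 at 1002 CPM and Psmb3 at 996 CPM, and it had reads of 32 of the 46 genes, among them all 7 beta ring and all 6 ATPase genes. In the same group incisor cell 2 stood apart for Rn45s, 11.9% of its counts against 0.940% in the next cell, and for Malat1, 15.3% against 2.13%. Incisor cell 2 had counts of 922 genes, the fewest of the mural-like cells, reads of 5 proteasome genes, and 570 CPM of Rgs5, close to the class limit. In all, 12 combinations of a measure with the molar or the incisor mural-like cells were looked at in this way. Chance alone puts about 1 in 20 past the limit, and combinations on the same cells are not independent.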

How the results depend on the processing

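Over 119 recomputed values of the main results under other settings than leaving out 1 cell, 101 stayed close to the reported value, 13 moved and 5 turned. The macrophage share of counts was 0.564% without the 50 genes with most counts, 0.410% and 0.436% in molar and incisor cells alone and 0.447% without Rn45s and Malat1. The mural-like share under the same settings was 0.874%, 0.672%, 0.752% and 0.722%, with 0.708% at an Rgs5 limit of 1000 CPM or without incisor cell 2 (the same cells) and 0.654% without incisor cell 10. It stayed above the macrophage share in each. Leaving out the 50 genes moved the median log2 ratio of all genes between the classes from -0.07 to 0.08 and that of the members from -0.73 to -0.63. In incisor mural-like cells alone the median number of members read was 30. The span of the core genes per kilobase in macrophage cells was 59.9-fold with the longest transcript and 61.5-fold without incisor cell 9. The median tissue ratio turned to -0.043 in mural-like cells without incisor cell 2 or at the 1000 CPM limit, and over all cells to -0.0087 with no filter, -0.041 with a filter of 20 CPM and -0.17 with thinned counts, so neither has a settled direction. In incisor cells alone Psmb7 turned to 0.31 between the classes, and Psmg1 to 1.20, a value under the filter there and set largely by the pseudocount. With 1 cell left out, the macrophage share ran from 0.412% to 0.431%, the mural-like share from 0.654% to 0.732%, the class median from -0.87 to -0.55, members 2-fold higher in mural-like cells from 13 to 19 and in macrophage cells from 6 to 7, the tissue median from -0.39 to 0.18 in mural-like cells and from -0.11 to 0.12 over all cells, Psmd5 in macrophage cells from -3.38 to 1.24 and Psme2 in mural-like cells from -1.93 to 0.48 (molar over incisor). The cause of these shifts was not tested.

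No paired analysis was possible because cell numbers do not pair molar with incisor cells and no animal is named. Smart-Seq2 counts are reads, each tissue is 1 sample, and the mural-like class rests on 15 cells, 9 and 6 by tissue; no comparison has a replicate check.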
